A study of Homo sapiens with 102 samples.

Results

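The comparison described here set K562 cells that received imatinib from both drug sources of a Combi-Seq droplet against cells that received imatinib from a single source and the solvent DMSO from the other. Its members are the 9 libraries of the dT screen whose labels give imatinib as both drugs (Imatinib_Imatinib, 3 libraries) or imatinib beside DMSO (Imatinib_DMSO, 3 libraries, and DMSO_Imatinib, 3 libraries), out of 102 libraries in the series. Membership was set by these labels, with earlier results of these data known. The 3 Imatinib_Imatinib libraries of the Bio screen, in which the barcoding scheme of the pipeline was changed, are described by their depth and most abundant genes only. K562 is an established line from chronic myeloid leukaemia that carries the BCR-ABL fusion gene, and all groups shared this line, droplet encapsulation and an incubation of 12 h. Each run, numbered 1 to 3, gave 1 library per condition. A library is the pool of all cells whose droplets held the same drug pair. The labels do not say whether the runs came from separate cultures, while the study describes them as independent biological experiments. The study plotted fewer libraries for DMSO_Imatinib than for most other drug pairs. Which one it left out is not given in the sources used here, and all 3 were kept, with the main count also computed without each of them. Each drug pair had its own pair of barcode fragments, so within the dT screen an effect of the barcodes and an effect of the treatment cannot be told apart. The 3 dT libraries with DMSO from both sources (DMSO_DMSO, called solvent below) gave the level without drug.

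Imatinib occupies the ATP pocket of the ABL kinase and so blocks the BCR-ABL fusion protein, the kinase on which K562 cells depend. BCR-ABL signals through adaptor proteins to RAS and ERK, through STAT5, and to the transcription and translation programmes downstream, among them MYC and its targets. In K562 cells loss of this signal is known to slow growth and to favour erythroid features such as gamma-globin. A second portion of the same drug in a droplet is a change of dose with no new agent, and the comparison asks whether the larger dose left a different transcriptome.

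The double-portion libraries were the deepest of the group. They held 368983, 316995 and 405707 counts in runs 1 to 3, against 304197, 296762 and 310265 for Imatinib_DMSO and 127042, 221072 and 270885 for DMSO_Imatinib. In every run the double-portion library was the largest of its run, and all 3 lay above all 6 single-portion libraries. The difference of 108858 counts between the means had an exact permutation p of 0.0741 (two-sided, labels exchanged within run, 27 arrangements, smallest possible p 0.0370) and 0.185 after Benjamini-Hochberg adjustment over the 5 library measures examined.

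Genes with at least 1 count numbered 3411, 2981 and 3233 in the double-portion libraries. Imatinib_DMSO had 3515, 3455 and 3372 such genes despite its smaller totals, and DMSO_Imatinib had 1909, 2307 and 2583. In every run the double-portion library had fewer genes than Imatinib_DMSO and more than DMSO_Imatinib. After every library was thinned to 127042 counts the ranges were apart, at 2348 to 2626 genes with 2 portions, 2689 to 2818 for Imatinib_DMSO and 1909 to 2069 for DMSO_Imatinib. Before thinning, the mean difference from all 6 single-portion libraries was 351.5 genes (exact permutation p = 0.519, adjusted 0.648). After thinning it was 79.8 genes (exact permutation p = 0.852).

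No measure of the make-up of the counts passed the adjusted test. The 10 most abundant genes of each library took 23.1%, 24.2% and 28.9% of its counts in the double-portion libraries (mean 25.4 ± 3.09, SD, n = 3) and a mean of 22.0% ± 2.91 (SD, n = 6) with a single portion. This difference of 3.35 percentage points reached the smallest p that the permutations can give (exact p = 0.0370) and did not pass the adjustment (0.185). Against either single arm alone, or with any run left out, the design cannot reach 0.05. Mitochondrially encoded RNAs took 4.85%, 4.02% and 4.62% of the counts with 2 portions (mean 4.50%) and a mean of 4.67% with 1 portion (exact permutation p = 0.852). Ribosomal protein genes took a mean of 29.6% against 26.9% (exact permutation p = 0.148, adjusted 0.247).

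**Figure D1:**
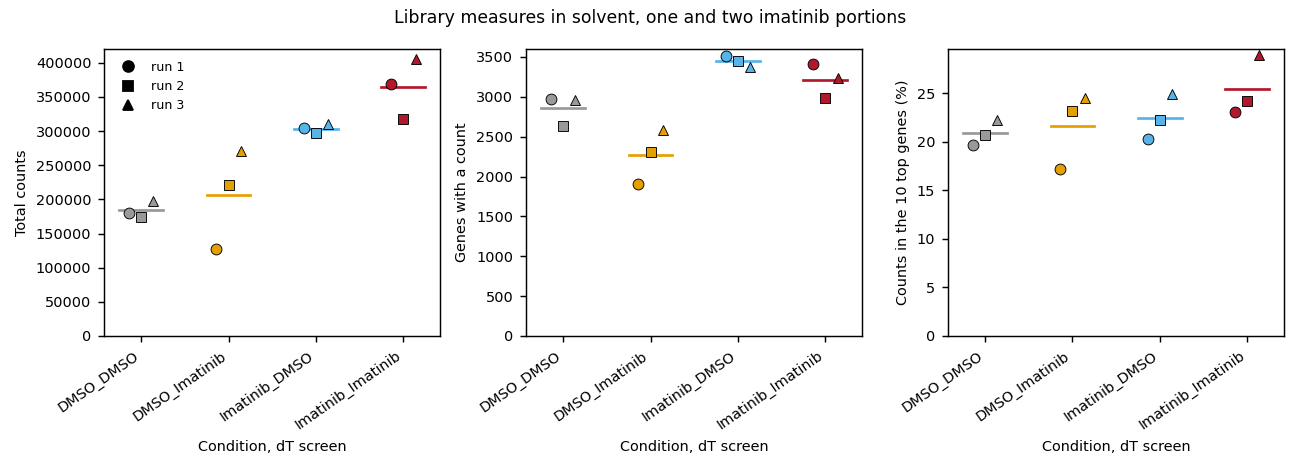
Total counts, genes with a count, and percent of counts in the 10 most abundant genes for the 12 dT libraries with solvent, imatinib listed second (DMSO_Imatinib), imatinib listed first (Imatinib_DMSO) and imatinib from both sources; marker shapes give the run and horizontal bars the mean of 3 libraries. The double-portion libraries sit highest in total counts, while in each run their gene number, 2981 to 3411 over the runs, lies below Imatinib_DMSO and above DMSO_Imatinib.

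The cells carried the marks of K562 in every arm. Of the 16 markers listed for the line, 15 had a count and 8 were tested, and their summed level was 30996 to 58330 CPM (counts scaled to a common library size, for these sums by library totals) with 2 portions and 13633 to 49283 with 1 portion, most of it from gamma-globin. Lymphoid markers summed to 0 in all 3 double-portion libraries and to at most 297 CPM in single-portion ones, and the 4 monocyte and granulocyte markers in the table were at 0 in all 12 dT libraries. Fibroblast markers summed to 0 to 436 CPM with 2 portions and to 0 with 1 portion. Epithelial markers summed to 83.8 to 1312 CPM against 66.4 to 1200. BCR had 0, 0 and 1 counts with 2 portions, 57, 0 and 1 for Imatinib_DMSO and 0 in all 3 DMSO_Imatinib libraries, too few to be tested. ABL1 had 6, 0 and 0 counts with 2 portions, 3, 20 and 46 for Imatinib_DMSO and 0, 0 and 4 for DMSO_Imatinib. The difference for ABL1 was -2.42 on the log2 scale (SE 2.82), within its error. At these counts neither the fused genes nor their kinase product could be followed.

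No gene passed the test between 2 portions and 1. edgeR's quasi-likelihood test, with run as a block and genes counted in at least 5 of the 9 libraries, called 0 of 1843 genes (0.0%) at an adjusted p under 0.05, with a smallest adjusted p of 0.868. At an unadjusted p under 0.05 there were 104 genes (5.64%), of which 44 had higher values with 2 portions (2.39%) and 60 lower values (3.26%). This balance depended on the setting, with 76 higher and 32 lower under filterByExpr, 73 and 39 with the single arms weighted equally, and 128 and 63 with all 48 dT libraries. The filter on 5 of 9 libraries can admit a gene with no count in the double-portion arm but none with no count in the single-portion libraries. DESeq2 on the same counts called 64 genes (3.47%), 29 higher and 35 lower. Of these 64, 2 were counted in all 9 libraries and 21 had double-portion values that lay wholly outside the single-portion ones. The 1843 genes were 18.7% of the 9856 with any count in these libraries and held 80.0% to 85.3% of the counts, and the median SE of a log2 fold change was 2.10 over all of them and 1.28 over the 397 genes counted in all 9 libraries. With errors of this size a change of a few fold in a typical gene was not detectable.

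The centre of the fitted changes had no stable sign. The median log2 fold change was 0.16, and 1014 of the 1843 genes had positive values. It was 0.34 with DESeq2's size factors in edgeR, 0.03 without the run block, -0.04 after thinning, -0.11 against Imatinib_DMSO alone and -0.52 with no gene filter, so small differences near these values carry no direction. The largest measured shifts are given next by their values and not as changes.

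The double-portion profile resembled Imatinib_DMSO more than DMSO_Imatinib. Pearson's r of log2 CPM between double-portion libraries averaged 0.42 (3 pairs), and between them and Imatinib_DMSO it also averaged 0.42 (9 pairs), whereas between them and DMSO_Imatinib it averaged 0.35 (9 pairs). The single arms averaged 0.36 with each other. Pairs of double-portion libraries shared 32.0% of the genes that either detected, and pairs with Imatinib_DMSO shared 32.1%. These values are across genes, which are not independent, and were not adjusted for depth, which was lowest in DMSO_Imatinib. Among the 1843 tested genes the mean log2 CPM with 2 portions lay above both single arms for 691 (37.5%), between them for 719 (39.0%) and below both for 433 (23.5%). Of the 719 between, 430 lay nearer to Imatinib_DMSO and 289 nearer to DMSO_Imatinib. The median absolute log2 difference was 1.18 from Imatinib_DMSO, 1.54 from DMSO_Imatinib and 1.61 between the single arms. By this measure the single arms, which hold the same drug amount in different positions, stood no nearer to each other than the double-portion arm stood to either. Over the 397 genes counted in all 9 libraries the same differences were 0.55, 0.75 and 0.66, so that there the single arms were nearer to each other than the double-portion arm was to DMSO_Imatinib.

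Gamma-globin and a few ribosomal protein mRNAs were among the 8 genes with the smallest p and higher values with 2 portions. These 8 were taken from the 397 genes counted in all 9 libraries. They were ranked by p and not by how far the arms stood apart. CPM, the usual scaling of counts to library size, were computed on TMM-scaled library sizes (TMM, edgeR's scaling between libraries), and each of the 16 genes taken by this rule had an adjusted p of at least 0.868.

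HBG2 (ENSG00000196565, chromosome 11, 5253190 to 5505605 in GRCh38, as are the other positions) encodes a gamma chain of fetal haemoglobin and was the most abundant globin here. It had 28612, 43853 and 61506 CPM in the double-portion libraries. The 6 single-portion libraries ranged from 10545 to 48235 CPM with a median of 28819. In each run the double-portion value lay above both single-portion values of that run, although the arms overlap when the runs are pooled. The within-run ratios were 1.07, 1.80 and 1.39 to Imatinib_DMSO and 2.71, 1.41 and 1.28 to DMSO_Imatinib. The log2 fold change was 0.57 (SE 0.21). Solvent libraries had 27907 to 37743 CPM, computed on their own totals with no TMM factor, a range that overlaps both arms.

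HBG2 and its tandem copy HBG1 differ at 2 of 444 coding bases, T227C and G410C, counted from the A of the start codon with the HBG2 base first. The stretch around the latter position is shown because within the coding sequence only reads over such bases separate these copies. Their untranslated regions were not compared. How the counts split between the copies is therefore uncertain. Both lines give coding bases 380 to 439 in the GENCODE 29 annotation of GRCh38, minus strand, 5′ to 3′, within a single exon, with the differing base in capitals, at chr11:5253282-5253341 for HBG2 and chr11:5248364-5248423 for HBG1.
HBG2: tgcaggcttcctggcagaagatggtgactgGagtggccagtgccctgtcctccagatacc
HBG1: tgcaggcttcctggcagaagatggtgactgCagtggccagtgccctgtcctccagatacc
HBG1 itself had 137, 0 and 0 counts with 2 portions, 0, 69 and 0 for Imatinib_DMSO and 0 in all DMSO_Imatinib libraries, so nearly all counts of the pair were assigned to HBG2. The annotated interval of HBG2 also overlaps that of HBE1, the embryonic epsilon-globin, which had 1, 5 and 41 counts with 2 portions.

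RPL31, a protein of the large ribosomal subunit (ENSG00000071082, chromosome 2, 101001715 to 101024032), had 30843, 31334 and 50334 CPM with 2 portions. With 1 portion the values ran from 13109 through a median of 25304 to 38022 CPM. The double-portion library was again the highest of its run in all 3 runs, by ratios of 1.24, 1.20 and 1.32 to Imatinib_DMSO and 2.35, 1.36 and 1.95 to DMSO_Imatinib. The log2 fold change was 0.57 (SE 0.18), and RPL31 stood at 21355 to 26705 CPM in solvent.

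Other genes of this kind followed with smaller shifts. RPS15, of the small subunit, had 13883, 18474 and 20439 CPM against 8678 to 17429 (median 13255), a log2 fold change of 0.40 (SE 0.18), and was highest in each run. RPL34 had 18348, 22240 and 34657 CPM against 10703 to 31121 (median 21595), a log2 fold change of 0.31 (SE 0.16). The arms overlap for both. Ribosomal protein genes have many processed pseudogenes of near-identical sequence, so their counts depend on how such reads were assigned.

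COX6B1, a nuclear-encoded subunit of cytochrome c oxidase, had 3729, 4570 and 10070 CPM with 2 portions against 1481 to 5942 (median 2864). It was the highest of its run in all 3 runs, with a log2 fold change of 0.88 (SE 0.40). MT2A, a metallothionein that binds zinc and copper, had 9604, 9631 and 10951 CPM against 4336 to 9640 (median 7213), a log2 fold change of 0.51 (SE 0.26). Its double-portion values lay near or above the highest single-portion value.

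PPDPF (ENSG00000125534, chromosome 20, 63520724 to 63522206) was the only one of the 8 whose arms did not overlap. It had 3776, 3614 and 3983 CPM with 2 portions and 1103 to 2996 (median 1453) with 1 portion, a log2 fold change of 1.17 (SE 0.55). The solvent libraries, at 5678 to 9525 CPM, were higher than both. The double-portion values thus lay between those with a single portion and those without drug.

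Among the 8 genes with lower values, PSMD2 had the smallest p. PSMD2 (ENSG00000175166, chromosome 3, 184298709 to 184309054) is a non-catalytic subunit of the 19S cap that feeds proteins to the proteasome. It had 546, 32.2 and 285 CPM with 2 portions against 463 to 4462 (median 1204) with 1 portion. The double-portion library was the lowest of its run in all 3 runs, with a log2 fold change of -2.79 (SE 1.01). DESeq2 called it (adjusted p = 0.0080, against 0.0080 to 1 over the alternatives tried).

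ENO1, the glycolytic enolase, had 5663, 7573 and 3062 CPM with 2 portions. In Imatinib_DMSO it had 4243, 9644 and 6135 CPM, which overlap the double-portion values, and in DMSO_Imatinib 11248 to 14014 CPM, all higher. The log2 fold change of -0.88 (SE 0.40) thus rested on the DMSO_Imatinib arm. EDF1, a transcriptional coactivator that also binds ribosomes, had 3906, 1537 and 2661 CPM against 2522 to 6854 (median 4835) and a log2 fold change of -0.85 (SE 0.46). MT-ND4, a mitochondrially encoded subunit of respiratory complex I, had 1203, 399 and 1107 CPM against 798 to 6212 (median 2351) and a log2 fold change of -1.55 (SE 0.84). For MT-ND4 the value was -2.10 against Imatinib_DMSO alone and -0.46 against DMSO_Imatinib alone.

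The other 4 lower genes were counted only a few times in most double-portion libraries. RPL27, of the large ribosomal subunit, had 5.52, 3.22 and 8.08 CPM, against 3.82 to 295 (median 185). LZTR1, an adaptor of a ubiquitin ligase that acts on RAS proteins, had 2.76, 3.22 and 21.5 CPM, against 15.3 to 1020 (median 432), and DESeq2 called it (adjusted p = 0.0438, against 0.0438 to 1 over the alternatives). PDAP1 had 16.5, 16.1 and 13.5 CPM against 9.40 to 712 (median 242). MRPL12, a mitochondrial ribosomal protein, had 193, 6.43 and 2.69 CPM against 6.33 to 822 (median 613). Their log2 fold changes ran from -3.80 to -4.74 with SEs of 2.35 to 2.75. Against Imatinib_DMSO alone and DMSO_Imatinib alone the values were -5.33 and -1.39 for RPL27 and -4.67 and -0.90 for PDAP1. They were -5.39 and -6.37 for LZTR1 and -5.49 and -4.54 for MRPL12. In this depth range 1 count was worth 2.69 to 3.22 CPM in the double-portion libraries and up to 6.33 CPM in the shallowest single-portion one.

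**Figure D2:**
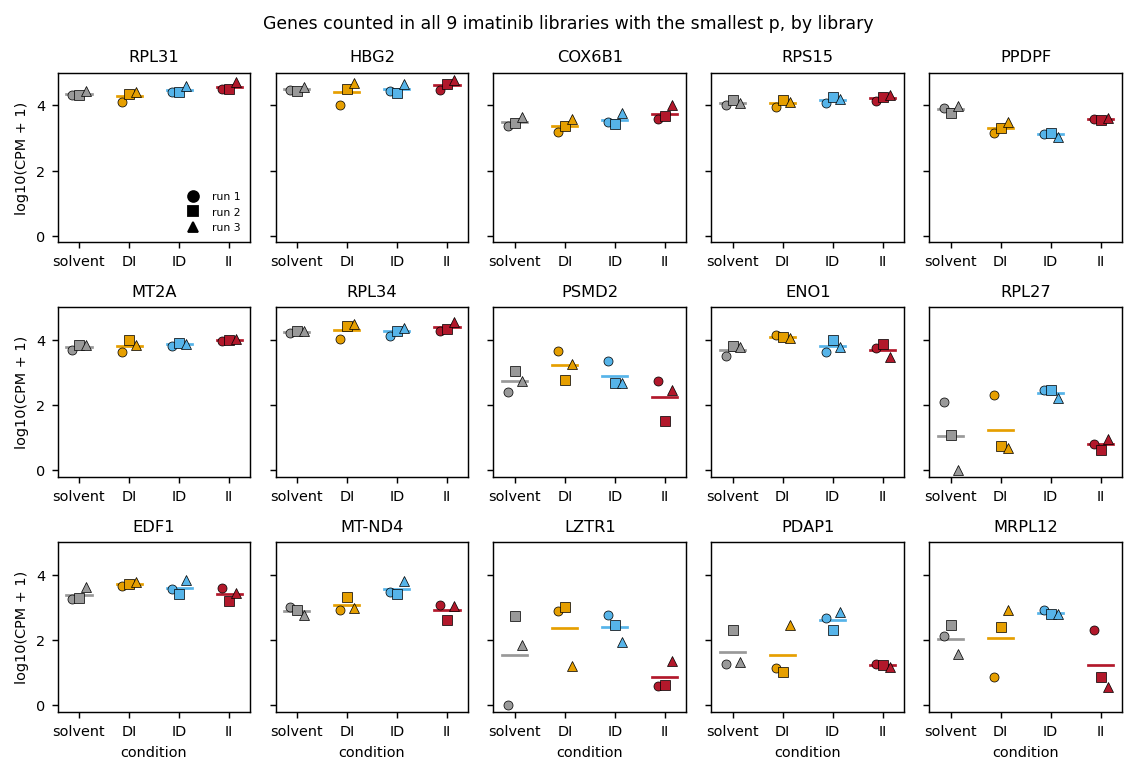
Log10(CPM + 1) of the genes described above with higher or lower values in the double-portion libraries, taken by the smallest p among genes counted in all 9 libraries, for solvent, DMSO_Imatinib (DI), Imatinib_DMSO (ID) and Imatinib_Imatinib (II); shapes give the run and bars the mean of 3 libraries. HBG2, RPL31, RPS15, COX6B1 and PPDPF have II above DI and ID in every run, and PSMD2 has II below both.

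A further description counted the tested genes whose 3 double-portion values all lay outside the range of the 6 single-portion values. There were 47 such genes of 1843 (2.55%), 36 higher (1.95%) and 11 lower (0.597%). Over the 1843 genes the directions were not equally open. A lower gene needed a count in all 6 single-portion libraries, a higher gene only in the 3 double-portion ones, which were deeper. The 36 against 11 therefore gives no direction. Among the 397 genes counted in all 9 libraries, 9 were higher (2.27%) and 2 lower (0.504%). The 36 against 11 became 35 against 12 on CPM without TMM. Without DMSO_Imatinib run 1, the shallowest library, it became 43 against 26. The genes named in this and the next 4 paragraphs were chosen after their values were seen. ELOB, a subunit of elongin and of cullin ubiquitin ligases, had 3544, 2778 and 3111 CPM against 1537 to 2553. AP2M1, of the clathrin adaptor, had 996, 1084 and 1312 CPM against 13.7 to 879, and TSEN15, of the tRNA splicing endonuclease, had 1589, 1502 and 1476 CPM against 7.64 to 882. The 2 lower genes were TMSB10, an actin monomer-binding thymosin, with 196, 148 and 137 CPM against 358 to 1165, and EEF1B2, a translation elongation factor subunit, with 268, 35.4 and 245 CPM against 275 to 513. None of these passed the test, and of the 9 higher genes 5 were pseudogenes of other genes, whose reads cannot be told from their parents with certainty.

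GSE1 and REXO2 had no count in any double-portion library and counts in all 6 single-portion ones. GSE1, a coiled-coil protein found with histone deacetylase complexes (ENSG00000131149, chromosome 16, 85169525 to 85676204), had 245, 266 and 283 counts in Imatinib_DMSO and 108, 273 and 5 in DMSO_Imatinib, which makes it at least 88.8-fold lower with 2 portions at a floor of 3 counts per library. In solvent it had 73, 0 and 1 counts, so that it was not a constant feature without drug either. REXO2, a mitochondrial oligoribonuclease, had 49, 8 and 124 counts in Imatinib_DMSO and 110, 171 and 15 in DMSO_Imatinib, at least 41.3-fold lower with 2 portions, and 0, 15 and 0 in solvent. They were the only 2 genes of this kind. Allowing 1 single-portion library at 0 gave 20 genes (1.09% of those tested), 7 of them at 0 in solvent too.

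SRRM2, a scaffold of the spliceosome and nuclear speckles, had 1, 0 and 1 counts with 2 portions, 128, 60 and 196 in Imatinib_DMSO and 11, 40 and 81 in DMSO_Imatinib, with 148, 4 and 95 in solvent. Here both single arms and solvent had counts in every library and the double-portion arm nearly none. AIFM1, the mitochondrial flavoprotein known as apoptosis-inducing factor, had 2, 0 and 1 counts with 2 portions, 16, 20 and 61 in Imatinib_DMSO, 21, 296 and 124 in DMSO_Imatinib, and 18, 50 and 22 in solvent. DESeq2 called GSE1, REXO2, SRRM2 and AIFM1. edgeR called none of them in the fit with both single arms, and called GSE1 against Imatinib_DMSO alone.

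The opposite pattern was seen in genes counted almost only with 2 portions. CCDC6, a coiled-coil protein known as a fusion partner of RET, had 595, 84 and 211 counts with 2 portions, 3, 0 and 1 in Imatinib_DMSO and 0 in DMSO_Imatinib, with 0, 0 and 104 in solvent. MPHOSPH9, a centrosomal protein, had 209, 95 and 528 counts against 1, 0 and 9 and against 0, and was at 0 in solvent. PPP1R12C, a regulatory subunit of myosin phosphatase, had 297, 111 and 182 counts against 1, 11 and 0 and against 0, 2 and 0, with 1, 0 and 0 in solvent. These 3 were among the DESeq2 calls. UFC1, the conjugating enzyme of the ubiquitin-like UFM1, had 33, 247 and 162 counts with 2 portions and at most 4 in any single-portion library.

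In all, 24 genes (0.244% of the 9856 with a count) had counts in all 3 double-portion libraries and in no single-portion library, of which 17 were protein coding, 5 were pseudogenes and 8 had at most 10 counts in all. They were in too few libraries to be tested, and 13 of them were at 0 in solvent too. PSME2, a subunit of the PA28 proteasome activator, had 158, 38 and 101 counts, at least 22.3-fold higher at the floor of 3 counts per library. EIF2A, an alternative initiation factor, had 77, 13 and 154 counts, at least 18.0-fold higher. Such genes stand against a background of irregular detection: of the 6088 genes with a count in any double-portion library, 3683 were counted in 1 of the 3, 1273 in 2 and 1132 (18.6%) in all 3.

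**Figure D3:**
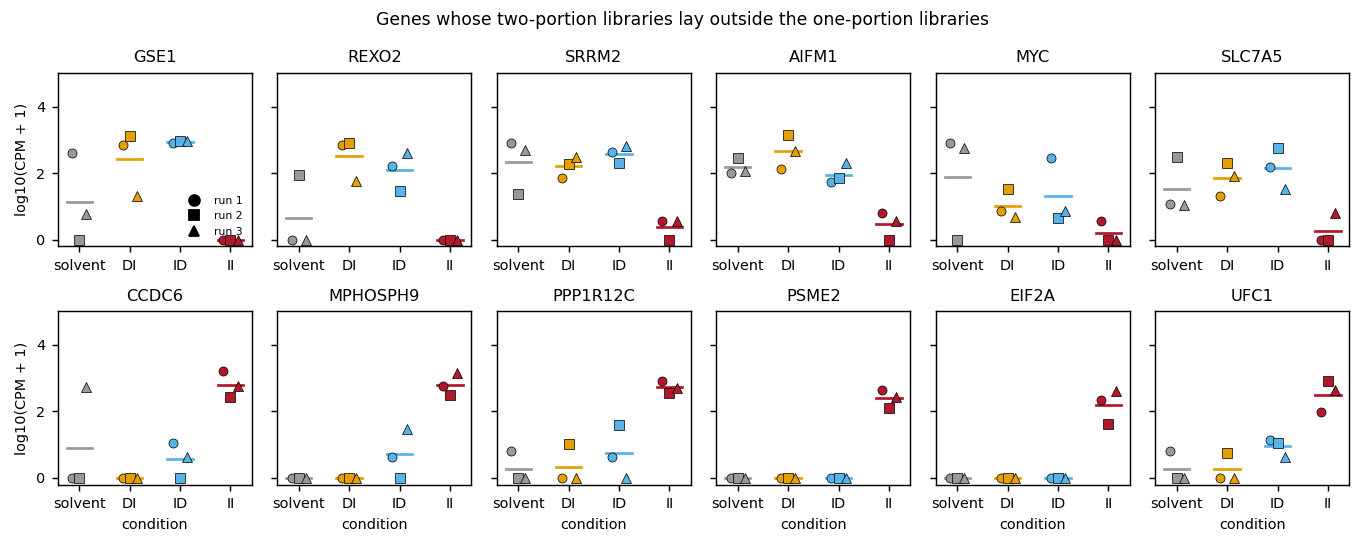
Log10(CPM + 1) by library, with solvent, DMSO_Imatinib (DI), Imatinib_DMSO (ID) and Imatinib_Imatinib (II) on the horizontal axis, shapes for runs and bars for the mean of 3 libraries, for 12 genes chosen after their values were seen because II lay outside DI and ID. GSE1 and REXO2 are at 0 in all 3 II libraries, and PSME2 and EIF2A are at 0 in all libraries but II.

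The signalling chain that imatinib acts on was sparsely counted. Of its 31 listed members from BCR-ABL to ERK, 25 had a count and 8 were tested, with 0 called, 4 positive and 4 negative differences and a median difference of -0.22 on the log2 scale, beside 0.16 over the 1843 genes. GRB2, the adaptor that couples BCR-ABL to RAS activation, had 24, 0 and 18 counts with 2 portions against 0, 9 and 202 in Imatinib_DMSO and 154, 216 and 0 in DMSO_Imatinib. MAP2K2, the MEK2 kinase, had 888, 32.2 and 1293 CPM with 2 portions and 0 to 1190 with 1 portion, and its log2 fold change of 0.42 (SE 2.10) was within its error.

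Transcripts known to follow STAT5 and ERK gave few values. Of 17 STAT5 targets 3 were tested, with 0 called and a median log2 fold change of -4.94. MYC, the transcription factor that drives growth programmes and is also a member of the MYC and nucleolus list, had 1, 0 and 0 counts with 2 portions, 86, 1 and 2 in Imatinib_DMSO, 1, 7 and 1 in DMSO_Imatinib, and 149, 0 and 114 in solvent. The double-portion values lay below every single-portion value, by less than 1 count's worth, and 4 of the 6 single-portion libraries had no more than 2 counts, and the log2 fold change of -5.10 (SE 1.98) had an edgeR adjusted p of 0.868. PIM1, a survival kinase induced by STAT5, had 1, 0 and 1 counts with 2 portions, 2, 0 and 25 in Imatinib_DMSO and 47, 0 and 48 in DMSO_Imatinib, a log2 fold change of -4.94 (SE 2.57). CCND3, cyclin D3, lay the other way, with 145, 67 and 8 counts against 41, 33 and 94 and against 0, 20 and 3, a log2 fold change of 0.91 (SE 2.31). Of 24 ERK targets only ZFP36L1, an mRNA decay factor, was tested. It had 1, 0 and 350 counts with 2 portions and 0 to 843 with 1 portion.

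Genes of amino acid supply and the ATF4 response included several with low values in the double-portion libraries. This programme, run by the transcription factor ATF4 when amino acids are short or the endoplasmic reticulum is loaded, covers transporters, tRNA synthetases and enzymes of serine and proline synthesis. Of 28 listed members 11 were tested, edgeR called 0, DESeq2 called 3 (SLC3A2, TRIB3 and SLC7A5, all lower, beside 3.47% of all genes by that tool), 3 had positive and 8 negative differences, and the median log2 fold change was -0.57 beside 0.16 for all genes. The summed level of all members, per library total with no TMM factor, was 1426 to 3199 CPM with 2 portions, 4320 to 6763 CPM with 1 portion and 5179 to 6131 CPM in solvent, so that the double-portion range lay below both. Single-portion and solvent libraries overlapped. Much of the single-portion sum came from SLC3A2 in Imatinib_DMSO and from TRIB3 in DMSO_Imatinib, whose counts follow. The lower sum is thus not a shift shared by the whole list. Under other settings the list's median moved widely, to -4.38 after thinning and to 1.09 over the members counted in all 9 libraries.

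SLC3A2, the heavy chain of the LAT1 amino acid transporter, had 0, 15 and 41 counts with 2 portions, 810, 773 and 584 in Imatinib_DMSO and 325, 50 and 1 in DMSO_Imatinib. Its solvent counts were 241, 1 and 6. The double-portion values were far below those of Imatinib_DMSO and overlapped those of DMSO_Imatinib, and the log2 fold change was -4.96 (SE 2.15). SLC7A5, its light chain, named after its values were seen, had 0, 0 and 2 counts with 2 portions, 46, 167 and 10 in Imatinib_DMSO, 3, 43 and 21 in DMSO_Imatinib, and 2, 53 and 2 in solvent. The arms did not overlap for SLC7A5. TRIB3, a pseudokinase that ATF4 induces, had 3, 0 and 0 counts with 2 portions, 84, 5 and 0 in Imatinib_DMSO, 353, 656 and 418 in DMSO_Imatinib and 221, 0 and 242 in solvent. Its log2 fold change of -9.03 (SE 2.94) came mostly from DMSO_Imatinib. ATF4 itself was not lower: it had 519, 1788 and 935 CPM with 2 portions and 103 to 703 CPM with 1 portion, was the highest of its run in all 3 runs, and had a log2 fold change of 1.27 (SE 1.12). PYCR1, an enzyme of proline synthesis also named after its values were seen, had at most 2 counts in any imatinib library with either dose and 238, 710 and 359 in solvent, so that this contrast was between drug and no drug and not between doses.

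Erythroid genes were described by 3 lists. Of 11 globins 6 were tested, with 0 called and a median of 0.31. HBZ, the embryonic zeta-globin, had 557, 321 and 421 counts with 2 portions, 214, 211 and 191 in Imatinib_DMSO and 1, 341 and 428 in DMSO_Imatinib, a log2 fold change of 0.75 (SE 1.24). Of 32 erythroid regulators and membrane proteins 8 were tested, 5 positive and 3 negative, with 0 called and a median of 1.41. This median was 0.05 without the run block, 0.21 against Imatinib_DMSO alone, 0.29 after thinning and 0.41 over members counted in all 9 libraries. GYPC, the red cell glycophorin C, had 504, 504 and 514 counts with 2 portions, 101, 258 and 127 in Imatinib_DMSO and 3, 462 and 43 in DMSO_Imatinib, a log2 fold change of 1.97 (SE 1.14). GATA1, the master regulator of the lineage, came from run 2 in every arm, with 5, 138 and 1 counts against 0, 120 and 1 and against 0, 102 and 0. That run-wise pattern also held in solvent, with 3, 69 and 14 counts. Of 16 enzymes and carriers of heme synthesis 4 were tested, with a median of 0.82, and UROD, uroporphyrinogen decarboxylase, had 2303, 2167 and 1034 CPM against 6.33 to 1564.

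The translation machinery and the mitochondrial genes stayed near the centre of all genes. Of 40 tested proteins of the large ribosomal subunit 25 differences were positive and 15 negative, with a median of 0.15, and of 30 of the small subunit 16 were positive and 14 negative, with a median of 0.07, and edgeR called 0 in either. DESeq2 called 1 gene of the large subunit, RPL10A, higher, 1 initiation factor, EIF3D, lower, and 1 mitochondrial mRNA, MT-ND6, higher. The 6 tested elongation factors had a median of -0.24 and the 13 initiation factors 0.07. EIF3D, a subunit of the eIF3 complex, had 2.76, 3.22 and 0 CPM with 2 portions against 352, 731 and 1335 in Imatinib_DMSO, and was at 0, 0 and 225 CPM in DMSO_Imatinib. The 10 mitochondrially encoded mRNAs had a median of -0.04 with equal numbers on each side. MT-CO1, a core subunit of cytochrome c oxidase, had 13543, 13680 and 14377 CPM against 8543 to 17554. Of 28 tested nuclear respiratory chain subunits 19 were positive and 9 negative, with a median of 0.24.

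The remaining lists had medians between -1.30 and 0.73 among those with at least 5 tested members, and edgeR called 0 of their members. DESeq2 called PSMD2 and PSMB4 of the proteasome, NPC1 of the lysosome and TPM1 of the cytoskeleton list. Over all lists it called 10 genes, which are named here and in the paragraphs above because of these calls, after their values were seen. The lowest were lysosome at -1.30 (8 tested) and splicing proteins at -1.11 (16 tested), and the highest was the peroxiredoxin and thiol redox list at 0.73 (8 tested). The lysosome median stayed negative under the alternatives tried, which share the same libraries, so this is no independent check. NPC1, with no count in the double-portion libraries, passed the gene filter through the single-portion libraries alone. The splicing median turned to 0.46 with edgeR's filterByExpr, 0.55 against DMSO_Imatinib alone and 0.30 without run 2, and the redox median to -0.19 without run 2. PRDX5, a peroxiredoxin of that list, had 197, 353 and 219 counts with 2 portions against 0, 87 and 39 and against 2, 96 and 3, and 123, 396 and 9 in solvent, a log2 fold change of 3.98 (SE 1.94). Glycolysis had a median of 0.28 over 9 genes, chaperones 0.38 over 14, the proteasome 0.34 over 14, DNA replication and nucleotides 0.57 over 6 and mitosis 0.29 over 7. Histones, at -0.46 over 8 genes, high mobility group proteins, at -0.75 over 5, and cholesterol synthesis, at -0.71 over 6, lay lower. Actin and tubulin genes had a median of 0.10 over 14 genes. Of 25 apoptosis genes only BAX and BAK1 were tested, and no drug transporter was. Of the 26 lists with 5 or more tested members, 12 had a median above that of all genes and 14 did not. Over all 38 lists 308 of 799 entries were tested.

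**Figure D4:**
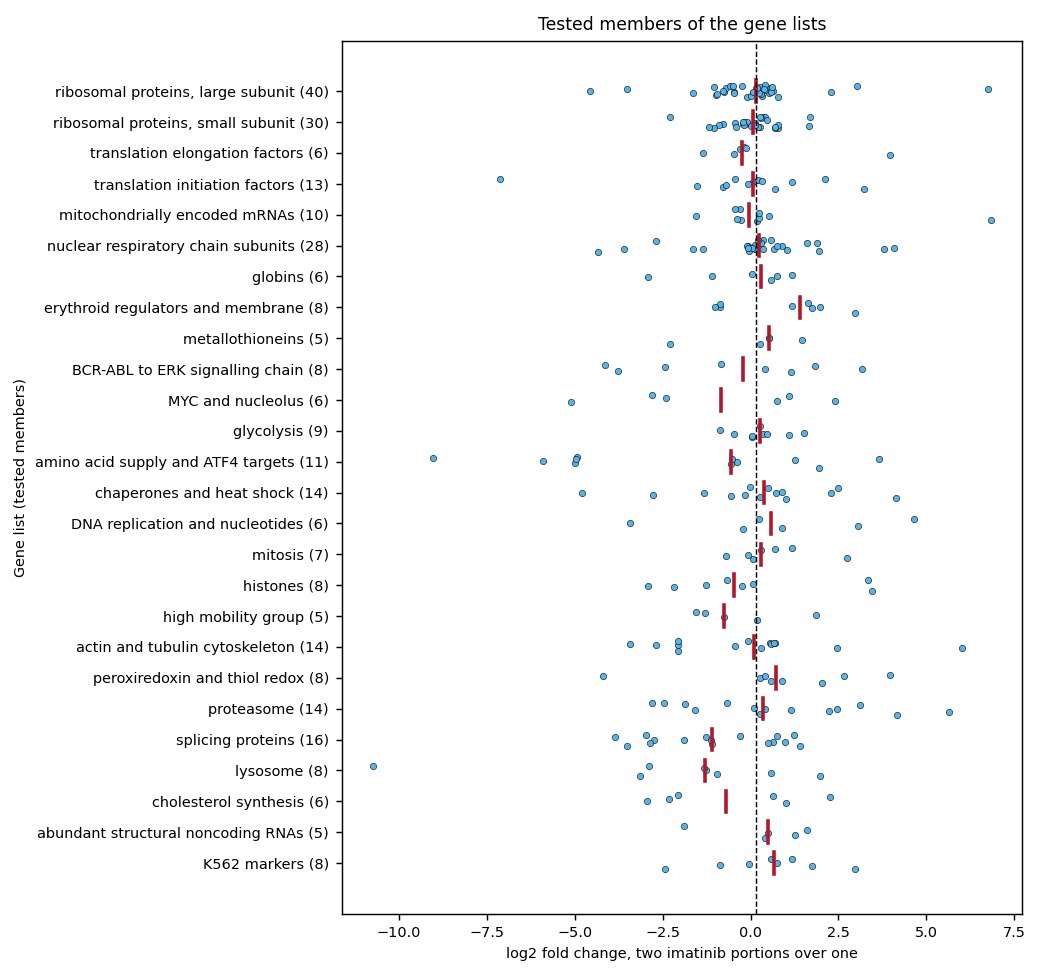
Log2 fold change, 2 portions of imatinib over 1, of each tested member (points) in the 26 gene lists with at least 5 tested members; red bars are list medians and the dashed line is the median over the 1843 genes of the fit, 0.16. List medians run from -1.30 (lysosome) to 1.41 (erythroid regulators and membrane), and single members spread from -10.75 to 6.85.

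Whether the second portion counted as an increase or a decrease depended for some genes on the listed position of the single portion. Against Imatinib_DMSO alone, edgeR called 10 of 2819 genes (0.355%), among them HBG2, RPL31, RPL34, MT-CO1 and MT-CO3 higher, and NDUFS8, SLC3A2, INSIG1 and GSE1 lower. Against DMSO_Imatinib alone it called 7 of 2216 (0.316%): HBG2, RPL31, NDUFS8 and TMEM183A higher, and TRIB3, NPC1 and SSU72 lower. In both of these fits of 3 against 3 libraries edgeR took the spread of each gene entirely from the trend over all genes, while the fit of 9 libraries gave each gene's own spread weight beside 7.27 prior degrees of freedom. The calls for the abundant HBG2 and RPL31 therefore rest on an assumed spread, and their log2 fold changes were 0.53 and 0.38 against Imatinib_DMSO and 0.74 and 0.86 against DMSO_Imatinib. These fits share the double-portion libraries.

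NDUFS8, a nuclear-encoded subunit of complex I (ENSG00000110717, chromosome 11, 68030617 to 68036644), was the extreme case. It had 561, 540 and 1110 counts with 2 portions, 2656, 2556 and 3539 in Imatinib_DMSO and 0, 0 and 1 in DMSO_Imatinib. The double-portion values lay between those of the single arms in every run, and solvent had 157, 352 and 97 counts. The log2 fold change was -2.20 against Imatinib_DMSO and 10.57 against DMSO_Imatinib, -1.25 in the fit with both arms, and 3.99 where each single arm was given equal weight, the only call of that contrast (1 of 1843, 0.0543%). With all 48 dT libraries in the fit edgeR called 2 of the 1843 genes (0.109%), NDUFS8 and RPL31. The sign for NDUFS8 was thus set by how the arms were combined.

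The genes named here were chosen from these calls, after their values were seen. TMEM183A had 1674, 1174 and 2289 counts with 2 portions, 1896, 871 and 1940 in Imatinib_DMSO and 3, 85 and 241 in DMSO_Imatinib, so that double-portion and Imatinib_DMSO libraries were alike and DMSO_Imatinib was low. INSIG1, which holds the sterol sensor SCAP in the endoplasmic reticulum, had 0, 0 and 12 counts with 2 portions, 346, 453 and 416 in Imatinib_DMSO and 0 in all 3 DMSO_Imatinib libraries, with 213, 83 and 166 in solvent. NPC1, the lysosomal cholesterol exporter, was at 0 in all 3 double-portion libraries, at 1, 1 and 0 counts in Imatinib_DMSO and at 351, 231 and 338 in DMSO_Imatinib. SSU72, a phosphatase of RNA polymerase II, had 0, 0 and 125 counts with 2 portions, 97, 4 and 48 in Imatinib_DMSO and 754, 448 and 380 in DMSO_Imatinib. For each of these the single arms differed from one another by more than the double-portion libraries differed from the nearer one. Which drug source stands in which listed position is not given by the labels, and an effect of source, barcode or position was not tested.

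**Figure D5:**
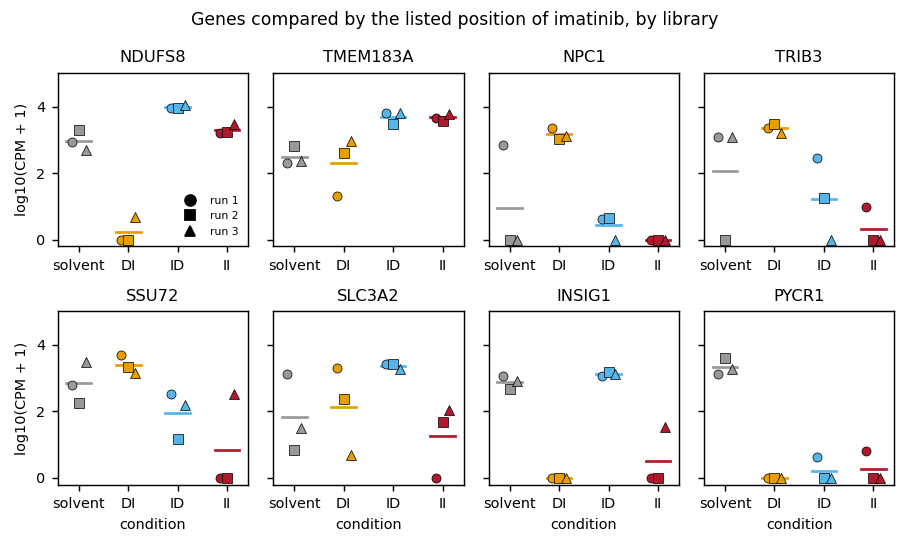
Log10(CPM + 1) by library for 8 genes chosen after their values were seen, with solvent, DMSO_Imatinib (DI), Imatinib_DMSO (ID) and Imatinib_Imatinib (II) on the horizontal axis, shapes for runs and bars for the mean of 3 libraries. NDUFS8 and TMEM183A are low in DI, NPC1, TRIB3 and SSU72 are high in DI, SLC3A2 and INSIG1 are high in ID, and PYCR1 is high in solvent.

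The solvent libraries placed both doses against no drug. edgeR called 0 of 1988 genes (0.0%) between 2 portions and solvent, with 152 (7.65%) at an unadjusted p under 0.05 and a smallest adjusted p of 0.628. DESeq2 was not run on this comparison. The comparisons of either dose with solvent share the solvent libraries, and their log2 fold changes are set side by side only. For RPL31 they were 0.73 with 2 portions and 0.14 with 1, for HBG2 0.47 and -0.11, for COX6B1 0.93 and 0.02, and for PPDPF -0.96 and -2.13. MYC had -8.70 and -3.63, and SLC3A2 had -1.35 and 2.93.

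The same doubling was made with trametinib, a MEK inhibitor, and YM115 in the same screen, and the difference of doublings was tested directly. YM115 is the spelling of the labels, where the study lists YM155, an inhibitor of survivin. For imatinib against trametinib edgeR called 0 of 2056 genes (0.0%), with 148 (7.2%) at an unadjusted p under 0.05 and a smallest adjusted p of 0.523. For imatinib against YM115 it called 0 (0.0%), with 135 (6.57%) and 0.618. DESeq2 was not run on these tests. The values that follow for trametinib and YM115 come from the joint fit of these drugs, and those for imatinib from the main fit of 9 libraries. For RPL31 the log2 fold change of doubling was 0.22 with trametinib and 0.12 with YM115, beside 0.57 with imatinib. For HBG2 it was 0.10 and 0.27 beside 0.57, and for PPDPF -0.70 and -0.01 beside 1.17. MYC, which had few counts in most imatinib libraries, had fitted log2 fold changes of -6.20 with trametinib and -1.17 with YM115. These are given by their values, without errors, and not as changes. PSMD2 had -0.79 and -0.51 beside -2.79 with imatinib.

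The Bio double-portion libraries held 30359, 25110 and 17882 counts over 472, 453 and 438 genes, and nothing was tested in them. Of 1102 genes with a count in any of the 3, 907 were counted in 1 library and 66 in all 3. RPS6, of the small ribosomal subunit, took 10.2%, 17.4% and 17.3% of the counts (mean 14.9 ± 4.11, SD, n = 3), against 0.354% in the dT double-portion libraries, where it ranked 36th. RPL10 followed at 5.82% ± 0.35 (SD, n = 3), then RPL3 at 2.02%, FTL, the ferritin light chain, at 2.00% and SRP72, of the signal recognition particle, at 1.95%. MT-CO1, at 1.42% ± 0.29 (SD, n = 3), was the only one of the 10 most abundant genes that stood among the 20 most abundant in the dT double-portion libraries, where it took 1.33%. GANAB took 1.04% and PLK1, the mitotic kinase, 0.988%, with 2.43% in run 1 and no count in run 3. Mitochondrially encoded RNAs took 1.62%, 2.58% and 4.87% of the counts in runs 1 to 3. A gene with no count in these libraries could still have made up to 98.8 to 168 CPM, the level of 3 counts.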

How the data were processed

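Reads of the 3′-end cDNA were assigned to drug pairs by their barcodes and to genes by the authors, whose deposited table holds whole-number counts of 24965 genes in 102 libraries. The submitters' processing notes name STAR 2.4.2a and GRCh38, and the annotation release is not given in the sources used here. Gene positions were taken from GENCODE 29 by gene ID (24646 genes matched). Groups came from the labels. Nothing marks molecules, so counts are reads, and floors of 3 counts cover counting error only. Totals ran from 127042 to 405707 counts per dT imatinib library.

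Counts of the 9 dT libraries were scaled by TMM and tested with the quasi-likelihood F-test of edgeR 4.0.16 (R 4.3.3), with run as a block, genes counted in at least 5 of 9 libraries and Benjamini-Hochberg adjustment at 0.05. The tests against solvent and of the difference in doubling used the same model on their own libraries. Run was kept as a block because the study treats runs as batches. Over all tested genes same-numbered libraries hardly deviated together (mean residual r 0.02 over 9 pairs, 0 over 0.1). Pairs from different runs had a mean of -0.01 (18 pairs). Because group means were subtracted first, this value follows largely from the former mean and is no separate comparator. These means do not show whether single genes followed the run, as GATA1 did in every arm. No replicate pair was identical among the 15 compared. Library measures were tested by exact permutation within run. Alternatives were DESeq2 1.42.0, other scalings, gene filters, single arms, all 48 dT libraries, thinning, no block and left-out libraries. A robust spread, CPM without TMM for the overlap counts and overlap counts without the shallowest library were chosen after seeing the data. Code was tested on simulated counts. The genes named by rule were the 8 higher and 8 lower with the smallest p among those counted in all 9 libraries, 3 abundant tested members of each list, BCR and ABL1, and the 10 most abundant Bio genes. Some genes that these rules took are not reported here. The members and gene lists were chosen with earlier results of these data known.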

Additional observations from a re-analysis of the deposited data

Results flagged for a closer look

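Of 21 library measures and gene values examined for a sample far from the others, 1 stood out. Ribosomal protein genes took 20.8% of the counts in DMSO_Imatinib run 1, the shallowest library, and its gap to the next of the 6 single-portion libraries was 0.738 of their whole range. Chance alone marks about 1 in 20 groups in this way. Without run 1, the mean share differed by 2.27 percentage points between 2 portions and 1, beside 2.72 with all runs.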

How the results depend on the processing

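The count of 0 genes between 2 portions and 1 remained 0 under other scalings and gene filters, thinning, a robust spread and each left-out run or library (0 to 0). It became 64 with DESeq2, 1 with the arms weighted equally, 2 with all 48 dT libraries in the fit, 10 against Imatinib_DMSO alone (10 with a robust spread) and 7 against DMSO_Imatinib alone (8 with a robust spread). Without the replicate block 0 genes passed, with 131 at an unadjusted p under 0.05, and the block changed no other gene call. Lists with a median above that of all genes numbered 12, and 21 with no gene filter. The 16 genes named by rule kept their sign in all 27 fits. They were picked in the main fit, and these fits share its libraries, so this is no independent check.

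Among library measures, tested by exact permutation, the difference in total counts had p = 0.0476 without the block, at the same 108858 counts. The difference in top 10 share was 3.35 points with an exact permutation p = 0.202 without the block, 2.92 against Imatinib_DMSO and 3.79 against DMSO_Imatinib (p = 0.25 each), and 2.85 to 4.28 with a run left out (p = 0.111 each, the smallest possible). Detected genes differed by -239 against Imatinib_DMSO alone. The mitochondrial share differed by 0.457 points against Imatinib_DMSO alone, and by -0.628 to 0.128 with a run left out, positive without run 2. The cause of these shifts was not tested, apart from the fewer libraries in each. Most genes had counts in few libraries, and how far depth or the spread between runs limits their values was not tested.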
